A study of Mus musculus with 9 samples.

Results

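Auts2 is a gene of about 1106 kb on the minus strand of mouse chromosome 5, from 131437333 to 132543344 in GRCm38 (mm10), and the regions described here are the differentially methylated regions (DMRs) that overlap it or the 10 kb on either side. There were 11 of these among the 12949 DMRs of the table, and all 11 lay inside the gene body. They were chosen by position from regions that had already been selected on their difference between control and MMS pups, so that difference and its direction are described here and not tested. The tissue was whole hypothalamus of male C57/Bl6 mice at postnatal day 6. Modified maternal separation (MMS) was a daily session of 1.5 h away from the nest with enforced supine posture, repeated from postnatal day 4 to postnatal day 6, and control pups were male littermates not given it. The dissected tissue was not checked against marker genes here, since the table holds DNA regions and no expression values. DNA from 10 animals per group was combined into 3 pools per group, and each pool gave a methylated DNA immunoprecipitation (meDIP) library. An antibody against methylated cytosine pulls down DNA fragments, so the reads over a region depend on its methylation and on how many CpG sites it holds. The table gives 1 mean per group and no value per pool, so no error can be put on any value below. The hypothalamus holds many cell types, and a shift in their proportions and a change of methylation within cells cannot be told apart.

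AUTS2 is a nuclear protein of developing neurons, and disruption of the human gene is a known cause of intellectual disability and autistic features. In the nucleus it joins a non-canonical Polycomb complex that contains PCGF5, RING1B, casein kinase 2 and the acetyltransferase p300, and this form of the complex activates transcription. In the cytoplasm it acts through the Rac pathway on the actin cytoskeleton, in neurite growth and migration. The gene consists of a few exons separated by very long introns over most of its length, followed by a compact 3′ part with most of the coding exons. It has several internal transcription starts, some of which give shorter proteins. Methylated cytosine in mammals lies mostly at CpG sites, and outside CpG islands gene bodies are largely methylated.

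The DMRs are numbered from DMR 1, nearest the 5′ start of the gene, to DMR 11, nearest its 3′ end. The reference sequences of 4 of them show what the antibody could have bound in the regions at the extremes of difference and CpG content. They are read 5′ to 3′ on the plus strand of GRCm38, opposite to the gene, with each CpG in capitals. DMR 8 had the largest difference with MMS higher, DMR 7 the largest with control higher, DMR 9 the most CpG per 100 bp and DMR 4 the fewest. DMR 9 is shown whole (chr5:131727830-131727989), and the others by the central 300 bp, chr5:131739951-131740250 for DMR 8, chr5:131807368-131807667 for DMR 7 and chr5:132200014-132200313 for DMR 4.
DMR 8: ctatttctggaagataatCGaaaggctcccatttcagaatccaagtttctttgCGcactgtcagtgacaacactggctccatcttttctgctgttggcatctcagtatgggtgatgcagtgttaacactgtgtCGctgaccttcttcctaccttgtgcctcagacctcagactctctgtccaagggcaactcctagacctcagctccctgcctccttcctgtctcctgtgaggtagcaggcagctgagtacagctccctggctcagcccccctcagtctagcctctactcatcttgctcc
DMR 7: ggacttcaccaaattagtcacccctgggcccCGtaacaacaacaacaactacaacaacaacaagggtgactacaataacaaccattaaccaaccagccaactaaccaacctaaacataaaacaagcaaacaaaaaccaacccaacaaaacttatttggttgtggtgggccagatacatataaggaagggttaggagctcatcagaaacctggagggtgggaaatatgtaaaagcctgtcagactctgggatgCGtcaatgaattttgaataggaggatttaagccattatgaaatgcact
DMR 9: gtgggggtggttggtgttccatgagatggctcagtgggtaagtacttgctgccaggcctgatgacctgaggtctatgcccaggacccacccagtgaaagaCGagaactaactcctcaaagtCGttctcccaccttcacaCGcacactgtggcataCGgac
DMR 4: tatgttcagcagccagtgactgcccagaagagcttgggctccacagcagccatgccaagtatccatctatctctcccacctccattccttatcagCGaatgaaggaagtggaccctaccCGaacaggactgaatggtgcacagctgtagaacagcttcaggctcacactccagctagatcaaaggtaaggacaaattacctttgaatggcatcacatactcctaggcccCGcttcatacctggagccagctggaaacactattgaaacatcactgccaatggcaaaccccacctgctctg
The printed stretches hold 3 CpG of DMR 8, 2 of DMR 7, all 4 of DMR 9 and all 3 of DMR 4. As printed, the CpG of DMR 9 all lie towards the right-hand end, the 3 of DMR 8 lie in the left-hand part, up to near the middle, and the 2 of DMR 7 lie near opposite ends.

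Control had the higher group mean in 7 of the 11 DMRs and MMS in 4. Of all DMRs in the series 37.4% were higher in control and 62.6% higher in MMS, so the balance in Auts2 (36.4% higher in MMS) was the reverse of the general one. With a minimum log2 difference of 2 it turned to 3 of 5 higher in MMS, the direction of all DMRs of that size (80.6%). As MMS minus control on the log2 scale, the difference had a median of -1.31 over the 11 DMRs and 2.43 over all DMRs. Both directions occurred along the gene, and the direction switched at 6 of the 10 steps from one DMR to the next. The 3 DMRs nearest the 3′ end were all higher in control.

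**Figure D1:**
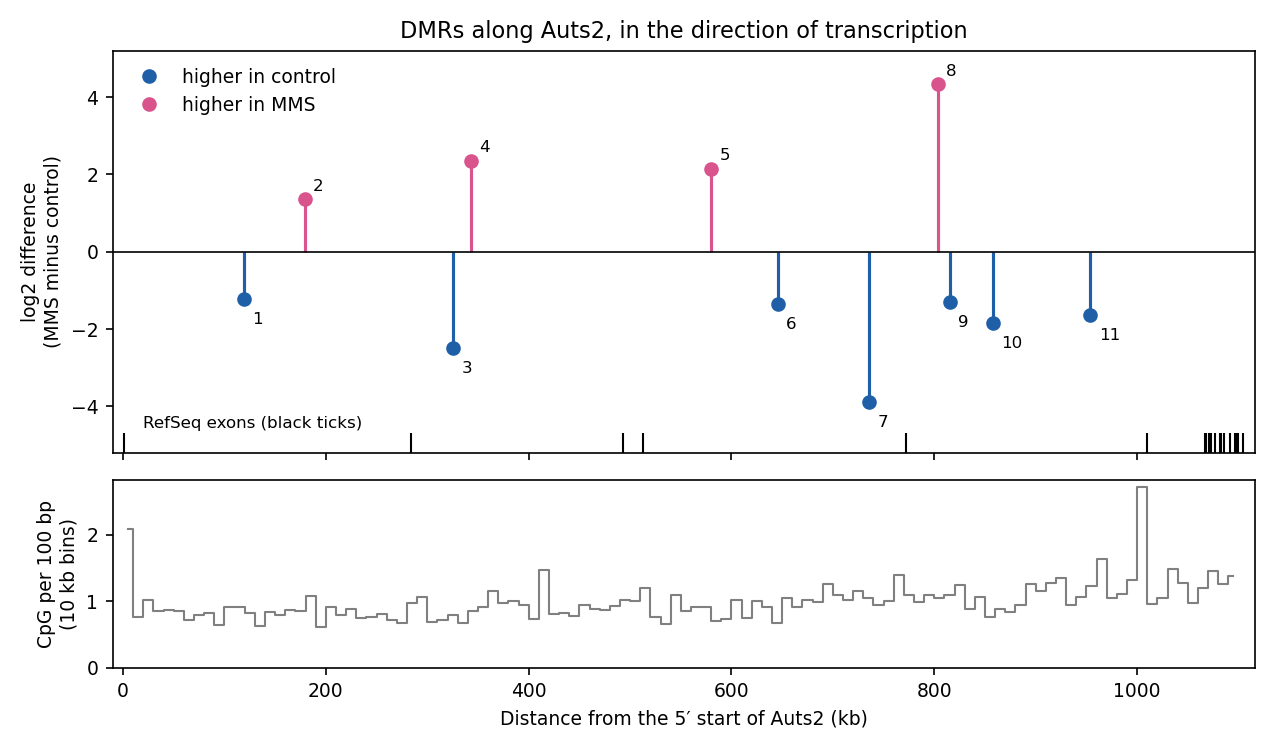
The upper panel plots the log2 difference in group mean of normalised reads (MMS minus control) of each DMR against its distance in kb from the 5′ start of Auts2, with numbers from DMR 1 to DMR 11, colour for the higher group and black ticks for the RefSeq exons. The lower panel gives CpG per 100 bp in bins of 10 kb. The 4 DMRs higher in MMS are interspersed with DMRs higher in control over the long introns up to DMR 8. The last 3 of the 7 higher in control follow, and the 3′ end with most exons has no DMR.

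All 11 DMRs were intronic. By their centres, and also by any overlap of 1 bp, none touched an exon or a promoter (1000 bp upstream to 100 bp downstream of a start) of any of the 20 GENCODE transcripts of the gene. Introns make up nearly all of the gene body, so an intronic position was almost fixed by choosing DMRs inside Auts2. The share of all DMRs with their centre in an intron of a protein-coding gene, 42.6%, includes intergenic DMRs in its total, and nothing is read from the comparison. The full-length RefSeq transcript, whose 19 exons give the numbers used here, has 4 introns over 200 kb, which together make up 89.3% of the gene body and hold all 11 DMRs. The other 14 introns, all shorter, hold none. Intron 1 (282.4 kb) had 2 DMRs, intron 2 (208.5 kb) had 2, intron 4 (260.2 kb) had 3 and intron 5 (236.9 kb) had 4. Each of these introns had exactly 1 DMR higher in MMS. The density went from 0.708 DMRs per 100 kb in intron 1 to 1.69 in intron 5.

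The regions lay far from the exons and starts of Auts2 itself. Introns over 200 kb make up 89.3% of the gene body, so most places in it are far from a RefSeq exon. The distances are given as a description, and nothing is read from them. The nearest exon of any GENCODE transcript of Auts2 was 24497 bp away for DMR 1, the closest of the 11, and 126388 bp away for DMR 6, the farthest. For most DMRs, all but DMR 7 and DMR 8, another annotated gene came nearer. These genes were noncoding or of unknown coding status, such as Gm42995 at 1484 bp from DMR 4 and Gm42989 at 5684 bp from DMR 2. The first 118.7 kb of the gene held no DMR, and neither did the last 151.7 kb, which contain 14 of the 19 RefSeq exons. Between neighbouring DMRs the gap ran from 11781 bp, between DMR 8 and DMR 9, to 236087 bp, between DMR 4 and DMR 5, with a median of 65922 bp. DMR 8 and DMR 9, the closest pair, were of opposite direction, as were DMR 3 and DMR 4, 17331 bp apart. The next DMRs outside the gene were 71564 bp upstream of its 5′ start (chr5:132614909-132615082, control 3.21 and MMS 5.32 on the log2 scale) and 367696 bp beyond its 3′ end (chr5:131069292-131069636, -0.17 and 4.47). Both were higher in MMS, the direction of 62.6% of all DMRs.

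The largest difference with MMS higher was at DMR 8, chr5:131739771-131740430 in intron 5. Control was at -0.17 and MMS at 4.16 as log2 means, or 0.889 and 17.9 normalised reads on the linear scale. The control value is the lowest that the table lists for control, so the log2 difference of 4.33 depends on where that lowest value was set. Among Auts2 DMRs it alone had control within 0.5 of its lowest value, against 33.0% of all DMRs. None had MMS within 0.5 of its lowest value, -0.24, so 10 of the 11 had reads above the lowest value in both groups.

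In the other DMRs higher in MMS, the control mean was above its lowest value by more than 2 on the log2 scale. DMR 4 (chr5:132199971-132200355, intron 2) was at 1.97 for control and 4.33 for MMS, a 5.13-fold difference. DMR 5 (chr5:131962820-131963883, intron 4) was at 2.32 for control and 4.47 for MMS, a 4.44-fold difference. DMR 5 was the only one of the 11 that overlapped another annotated gene, the antisense noncoding gene Gm42439. It overlapped no exon of that gene, and the nearest exon began 968 bp away.
DMR 2 (chr5:132363779-132364692, intron 1) had the highest MMS mean of the gene, 5.42, with 4.06 in control, a 2.57-fold difference. Among the table's DMRs higher in MMS it was near the low end, with 2.31% of them smaller in log2 difference. The MMS means of the 4 DMRs higher in MMS ran from 4.16 to 5.42, and their control means from -0.17 to 4.06.

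Of the DMRs higher in control, DMR 7 (chr5:131807282-131807753, intron 4) stood apart. Control was at 5.47 and MMS at 1.57 as log2 means, or 44.3 and 2.97 normalised reads, a 14.9-fold difference. Its log2 difference was -3.90, while the median of all DMRs higher in control was -1.73. DMR 3 (chr5:132217687-132218222, intron 2) followed with 4.90 in control and 2.41 in MMS, a 5.62-fold difference. DMR 3 and DMR 7 were also the 2 with the lowest MMS means of the gene.

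The other 5 DMRs higher in control differed by 2.35- to 3.61-fold. DMR 10 (chr5:131685524-131685751, intron 5) had 4.63 in control and 2.78 in MMS. DMR 11 (chr5:131588994-131589704, intron 5) had 5.43 and 3.79, DMR 6 (chr5:131897177-131897826, intron 4) had 5.23 and 3.89, and DMR 9 (chr5:131727830-131727989, intron 5) had 5.04 and 3.73. DMR 1 (chr5:132423481-132424622, intron 1) had 6.04 in control and 4.81 in MMS, the highest control mean and the smallest difference of the gene, 2.35-fold. It was also the widest of the 11 at 1142 bp, and DMR 9 the narrowest at 160 bp. A log2 difference of at least 2 in size was found in 5 of the 11, against 69.9% of all DMRs. Of these 5, DMR 4, DMR 5 and DMR 8 were higher in MMS and DMR 3 and DMR 7 in control. That minimum kept 36.2% of all DMRs higher in control and a larger part of those higher in MMS, so it shifts the balance towards MMS in the whole table.

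**Figure D2:**
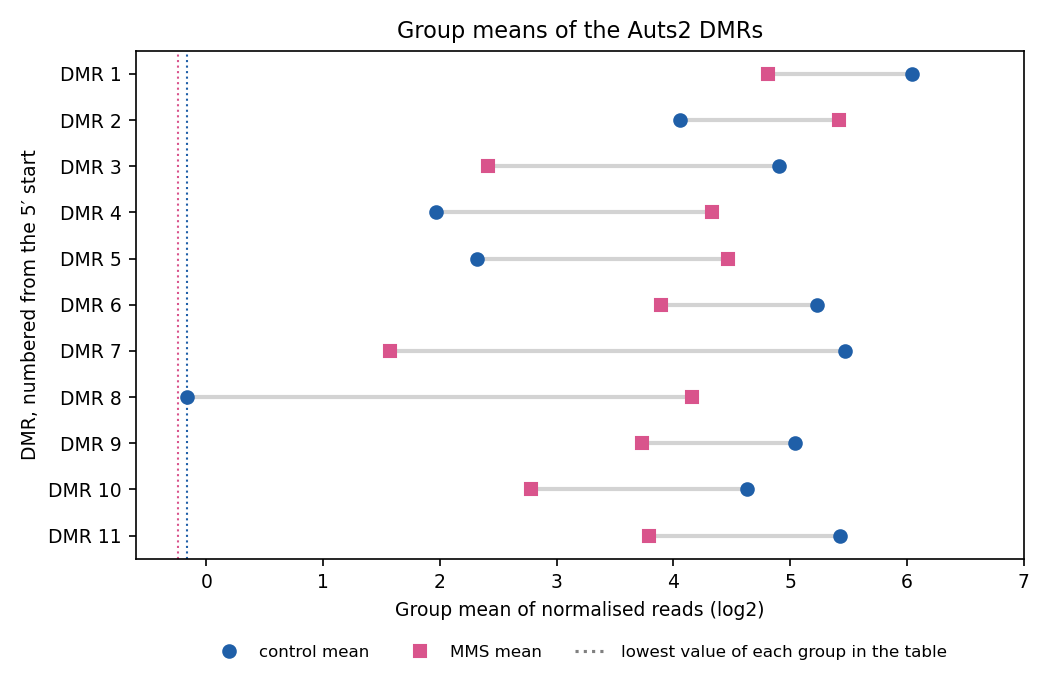
Each line is 1 DMR, from the 5′ start at the top, with the log2 group mean of normalised reads of control (blue circles) and MMS (pink squares) as given by the authors, and dotted lines at the lowest value of each group in the table. Control means of the 7 DMRs higher in control lie between 4.63 and 6.04, and DMR 8 alone has control on its dotted line.

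Over all 6 libraries the log2 means of the Auts2 DMRs ran from 3.23 in DMR 8 to 5.55 in DMR 1, with a median of 4.53, where the table's median was 3.73. In the 7 DMRs higher in control the median was 5.23 in control and 3.73 in MMS, and in all DMRs of that direction 5.13 and 3.33. In the 4 higher in MMS it was 2.15 in control and 4.40 in MMS, beside 0.20 and 4.09 for all DMRs of that direction. DMR 2, DMR 4 and DMR 5 were above that control median and DMR 8 was below it, and no difference was tested.

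The 11 DMRs together span 6922 bp, or 0.626% of the gene body, and hold 82 of its 11083 CpG sites (0.740%). They were not CpG-rich. The median was 1.09 CpG per 100 bp, lower than the 1.32 of all DMRs and the 1.37 of all DMRs in introns. Beside the rest of the gene body, cut into 2186 windows of 500 bp without a DMR, it was somewhat higher, since those windows had a median of 0.80, and 10 of the 11 DMRs were above that. The upper quartile of the windows was 1.20, which 5 of the 11 exceeded. GC content had a median of 45.5% in the DMRs and 43.6% in the windows. The ratio of observed to expected CpG ran from 0.128 to 0.384, far from that of a CpG island.

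**Figure D3:**
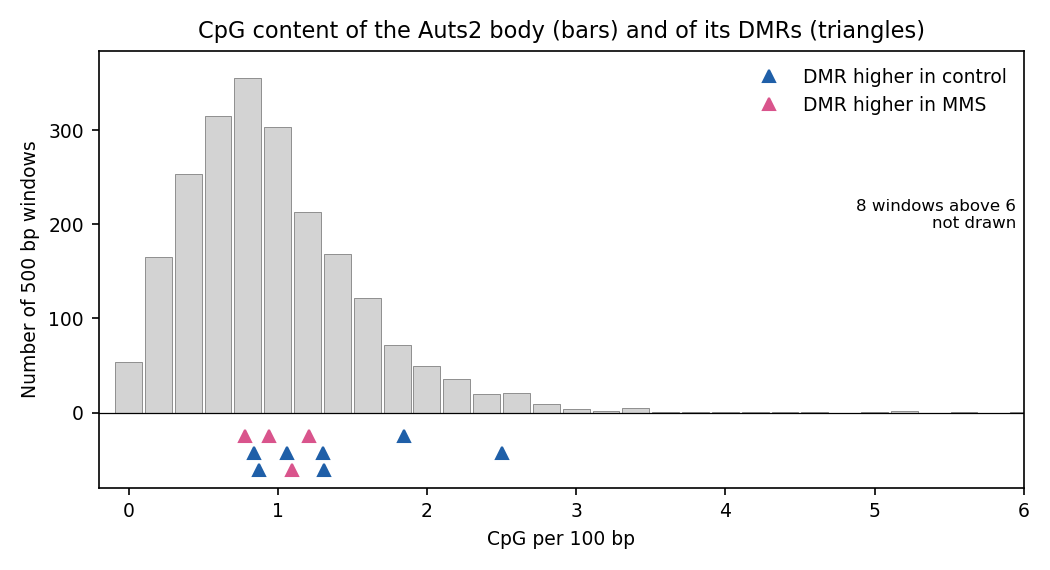
Bars count the windows of 500 bp in the Auts2 body without a DMR by their CpG per 100 bp, and triangles mark the DMRs by the same measure, with colour for the higher group. Of the 11 DMRs, 9 lie between 0.78 and 1.31, from the middle of the windows upwards except DMR 4, which is just below their median of 0.80, and DMR 6 (1.85) and DMR 9 (2.50) lie higher.

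CpG sites within the DMRs were unevenly spaced. DMR 1 had 15 sites with a median spacing of 21.5 bp, with a stretch of 336 bp between neighbouring sites near its middle. DMR 6 had 12 sites at a median of 39.0 bp and was, with 1.85 CpG per 100 bp, the densest of the wide regions. DMR 9, although only 160 bp wide, had 4 sites at a spacing of 16 to 21 bp and the highest density, 2.50. At the other end, DMR 10 had 2 sites in 228 bp, 24 bp apart, and DMR 4 had 3 in 385 bp.
DMR 5 had 10 sites in 1064 bp with a minimum spacing of 3 bp, DMR 2 had 10 in 914 bp, and DMR 8 had 8 in 660 bp. DMR 3 had 7 in 536 bp, DMR 11 had 6 in 711 bp and DMR 7 had 5 in 472 bp. The density was 0.78 to 1.21 in the 4 DMRs higher in MMS and 0.84 to 2.50 in the 7 higher in control, so the ranges overlapped. DMRs with few sites, such as DMR 10 and DMR 4, had log2 means of 4.63 and 4.33 in their higher group. All DMRs had been selected on their difference, and in the whole table the higher group was at 2.97 or more. Nothing about CpG number is therefore read from these means.

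**Figure D4:**
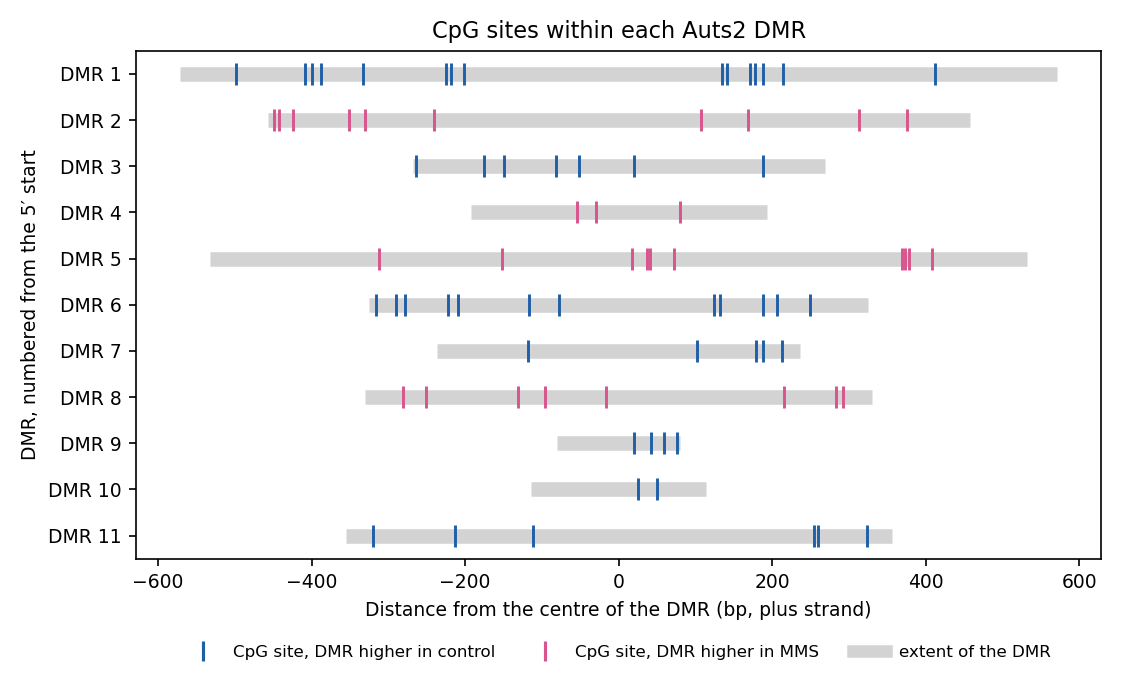
Each grey bar is a DMR drawn to scale about its centre, in bp on the plus strand, and each tick is a CpG site of the reference, coloured by the group with the higher mean. DMR 1 holds 15 sites and DMR 10 holds 2, and several wide DMRs have their sites in separate groups.

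No DMR overlapped the CpG-dense places of Auts2. These places and the DMRs, which span 0.626% of the gene body, each took up a small part of the gene. Their lack of overlap is therefore not read as a trait of the DMRs. With 5 or more CpG per 100 bp, 13 windows of 500 bp were found in the gene body, of which 8 lay within 2 kb of an annotated transcript start. They include the 5′ start of the gene, with up to 9.8 CpG per 100 bp, and the internal start of transcript Auts2-208 about 1005 kb further on, with up to 11.4. The start of transcript Auts2-209 was the dense window closest to any DMR, and DMR 11 was still 26629 bp from it. Regions that did not pass the authors' test are not listed, so methylation at these places is not described here.

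Repeats took up a median of 19.9% of the DMRs, close to the 19.6% of the windows in the rest of the gene body and the 20.7% of all DMRs. The share ran from 0% in DMR 4 to 60.2% in DMR 2, with 51.5% in DMR 11. Each of the 11 DMRs aligned to the reference chromosomes only at its own place, at a minimum of 100 bp and 95% identity, repeat-rich DMR 2 and DMR 11 included.

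A longer gene has more room for DMRs, and Auts2 ranked 41 in length among 21951 protein-coding genes, so its count was set beside those of other long genes. A DMR was found in the body of 18.9% of protein-coding genes. In the 230 genes of at least 500 kb, the number of DMRs in Auts2 ranked 7 and its density, 0.995 per 100 kb, ranked 20. The median density in these genes was 0.273, with quartiles of 0.145 and 0.580. Of the next 3 longer and the next 3 shorter protein-coding genes, Dab1, Nrg3 and Anks1b had 5 DMRs each, Opcml had 3, Kcnip4 had 2 and Frmpd4, which is on chromosome X, had 0. In these genes, chosen on each side of Auts2 and so not the nearest by absolute length difference, between 66.7% and 100% of the DMRs per gene were higher in MMS, where there were any. These shares rest on 2 to 5 DMRs per gene. Over the 230 long genes 66.0% of 785 DMRs, counted gene by gene, were higher in MMS. Some other genes of similar length, named after their values were seen, differed from these, since Asic2 (1088289 bp) had 10 DMRs, 7 of them higher in MMS, and Ctnna2 (1098063 bp) had 1, higher in control.

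**Figure D5:**
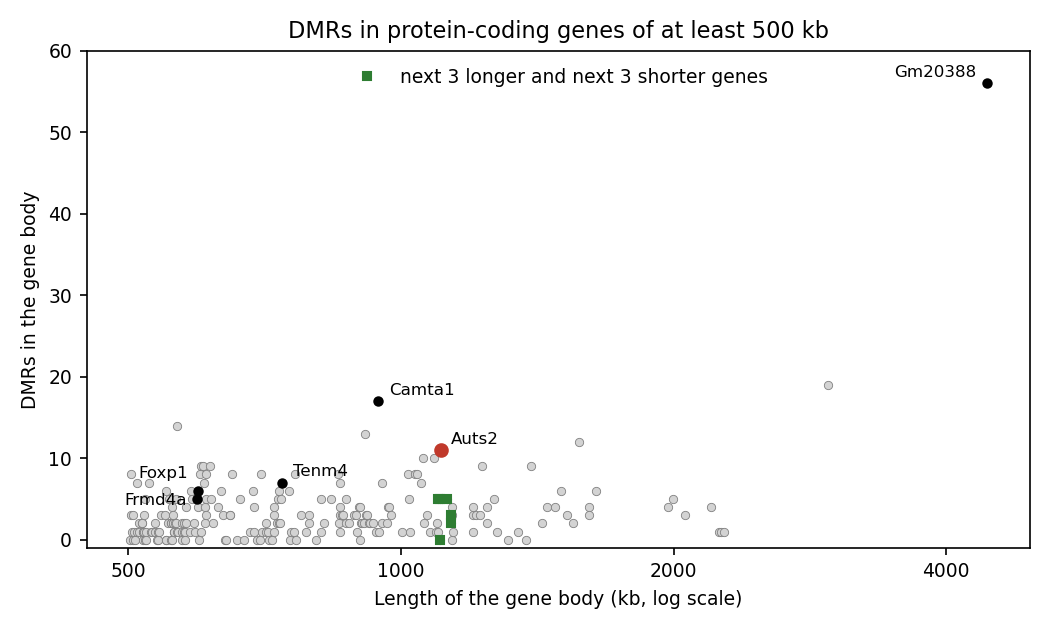
Each point is a protein-coding gene of at least 500 kb, with its length in kb on a log axis and its number of DMRs. Auts2 (red) has 11, more than the next 3 longer and next 3 shorter genes (green squares, 0 to 5), and fewer than Camta1 with 17. The black labelled point at the top right, Gm20388, is the gene with the most.

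The calmodulin-binding transcription activator gene Camta1 (944555 bp) had a balance near that of Auts2, with 6 of 17 (35.3%) higher in MMS and a median log2 difference of -1.36. Its DMRs were denser, at 1.80 per 100 kb, and held more CpG, with a median of 1.64 per 100 bp. In the zinc transporter gene Slc39a11 (405227 bp) 5 of 10 DMRs were higher in MMS, 4 of the 10 had control within 0.5 of its lowest value, and the density was 2.47 per 100 kb. By distance in density and in share higher in MMS, each scaled by its SD over the long genes, the most similar of the 199 long genes with a DMR were Tenm4 (3 of 7 higher in MMS, 0.946 per 100 kb), Frmd4a (2 of 5, 0.838) and Foxp1 (3 of 6, 1.00). Of the 24 long genes with at least 8 DMRs, 3 had a share higher in MMS at or under that of Auts2, Auts2 included, and the shares ran from 33.3% to 77.8%. None of these differences between genes was tested, because DMRs in a gene share their libraries and are not replicates.

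Both neighbouring protein-coding genes had DMRs with MMS higher only, the direction of 62.6% of all DMRs. With 3 regions per gene, they are too few to set these genes apart from others. Galnt17, which encodes a brain glycosyltransferase and lies 128835 bp beyond the 3′ end of Auts2, had 3 DMRs, all higher in MMS. Castor2, a gene of the nutrient-sensing mTOR pathway 1556366 bp beyond the 5′ start, also had 3, all higher in MMS. Of the 28 other genes annotated within Auts2 or 10 kb of it, all noncoding or of unconfirmed coding status, Gm42439 was the only one with a DMR.

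Of 20 genes for proteins that work with AUTS2 or resemble it, 7 had a DMR in the gene body, where 18.9% of all protein-coding genes had one. Every one of their 15 DMRs was intronic. They were chosen inside gene bodies, while the 42.6% of all DMRs that were intronic has intergenic DMRs in its total, so nothing is read from this. The counts are not adjusted for gene length, which ran from 3889 bp for Ring1 to 502986 bp for Dock1. Among the Polycomb partners this held for 4 of 12, with 1 DMR each, all higher in MMS, the direction of 62.6% of all DMRs. These 4 regions are too few to set the partners apart from other genes. Pcgf5, the Polycomb subunit found with AUTS2, was at 2.71 for control and 4.79 for MMS as log2 means (chr19:36389736-36390979). Its relative Pcgf3 had 0.64 and 3.72, and Csnk2a1, which encodes a catalytic subunit of casein kinase 2, had 1.82 and 5.02. In Yaf2, an adaptor of the same family of complexes, control was at its lowest value, -0.17, with 4.10 in MMS. No DMR was listed for Rnf2, which encodes RING1B, Ring1, Rybp, Csnk2a2, Csnk2b, Dcaf7, Ep300 or Nrf1.

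Among the cytoskeletal partners 3 of 5 genes had a DMR, where 18.9% of all protein-coding genes had one, again without adjustment for length. Dock1, the Rac exchange factor, had 8 in 502986 bp, with log2 differences from -1.32 to 4.15. Of these 8, 6 were higher in MMS, the direction of 62.6% of all DMRs. Elmo2, which binds DOCK1, had 1 in each direction (-1.14 and 2.01). Prex1, another Rac exchange factor, had 1 that was higher in control, with 6.08 in control and 5.00 in MMS. Rac1 and Cdc42, the GTPases themselves, had none. No DMR was listed in the paralogs Fbrs and Fbrsl1 or in Tbr1, whose product binds Auts2 in cortical neurons.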

How the data were processed

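MeDIP libraries of 3 control and 3 MMS pools were compared by the authors, with 2 inputs and 1 IgG control in their processing. The authors used Torrent Suite for alignment (mm10), found broad peaks over the inputs with MACS2 2.1 (version from the submitters' processing notes, genome size set to human), compared regions with DiffBind and DESeq2 after input normalisation and IgG subtraction, and annotated them with HOMER 4.8. The deposited log2 values are DiffBind's means of normalised reads over all libraries and over each group, with the untreated and treated columns read as control and MMS. The table's own fold changes, p-values and FDR were not used, and no test was computed, since the table holds no value or depth per library. Linear values are 2 to the power of these means. The lowest values listed were -0.17 in control and -0.24 in MMS, and a mean within 0.5 of them counted as at the lowest. The inputs and IgG were not analysed here.

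DMRs were assigned by any overlap with the GENCODE vM21 body of Auts2 or 10 kb on either side. Intron numbers come from the RefSeq transcript, with exons less than 10 bp apart joined. CpG, GC and repeats (soft-masked bases) were counted in GRCm38, and all coordinates lay within its chromosomes. Counting was tested on simulated sequences. Alignments of at least 100 bp and 95% identity were sought with BLAST 2.17.0. The work used Python 3.11.15, numpy 2.4.6, pandas 2.3.3 and matplotlib 3.10.9. The members, the lists and the alternatives were chosen with earlier results of these data known. Named genes were Auts2, its neighbours, the listed partners, Camta1, Slc39a11, the 3 nearest in length on each side and the 3 most alike in density and direction. Outside this list, Asic2 and Ctnna2 were named after their values were seen, and Gm20388 as the long gene with the most DMRs.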

Additional observations from a re-analysis of the deposited data

How the results depend on the processing

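The count of 11 DMRs was the same with no flank, with a flank of 50 kb, by centres, and with neighbours under 10 kb apart joined. A minimum log2 difference of 2 left 2 DMRs higher in control in place of 7, beside 3 higher in MMS in place of 4. The same minimum raised the share higher in MMS over all DMRs from 62.6% to 80.6%. With the longest GENCODE protein-coding transcript alone, 4 DMRs were intronic in place of 11, because that transcript does not span the gene. The RefSeq transcript, an alternative chosen after the data had been seen, gave 11. Leaving out DMRs at the lowest value, a minimum log2 difference of 1, features by any overlap, a wider promoter, another distance from the lowest value, a minimum width of 300 bp, CpG counted in 1000 bp, density over the flanks and means with 1 added moved no value by more than 1.5 times. No paired analysis was possible because the values are group means without libraries. For the same reason no pool could be left out. The depth behind each value is unknown, and differences against the lowest value depend on where it was set.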
